A study of Mus musculus with 4 samples.

Results

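The chromatin regions described here belong to 10 cytokine genes of mouse macrophages, namely Tnf, Il6, Lif, Osm, Il12a, Il12b, Il23a, Il27, Il10 and Ifnb1. The deposited ATAC-seq peaks of all libraries were merged into regions wherever they overlapped by at least 1 bp, and a region was assigned to the gene that the peak list names for its highest peak, which is the gene with the nearest transcription start site (TSS). This gave 49 regions out of 60710 in the whole series, and the 10 genes are among 16244 genes with at least 1 region. Assignment to the nearest TSS does not show that a region regulates that gene.

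ATAC-seq maps open chromatin, since the Tn5 transposase inserts sequencing adapters where the DNA is free. It was carried out on BMDMs (bone marrow-derived macrophages) from wild-type mice of 8 to 12 weeks, which were differentiated for 6 days with L929 supernatant, a source of M-CSF. Control cells received no IL-4, and IL-4 cells were exposed to 20 ng/ml IL-4 for 1 h. Each group held 2 libraries, numbered replicate 1 and replicate 2, both groups had been kept in L929 supernatant, and no other allele or agent is given for either.

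TNF, IL-6, IL-12, IL-23, IL-27 and IFN-β are secreted by macrophages after microbial sensing, when NF-κB, AP-1, C/EBPβ and interferon regulatory factors act on promoters and enhancers that PU.1 keeps accessible in resting cells. IL-12 is a dimer of the products of Il12a (p35) and Il12b (p40), IL-23 pairs p40 with the product of Il23a (p19), and IL-27 pairs the product of Il27 (p28) with that of Ebi3, whereas IL-10 limits the inflammatory response. IL-4 acts in macrophages through the transcription factor STAT6, which binds to paired TTC and GAA letters spaced by 4 bases, and drives the alternative programme of activation.

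A region is named below by its gene and the distance in bp of its highest peak from the TSS, with minus signs upstream. Positions are on chromosomes of the mm10 build, whose sequence (GRCm38.p6, RefSeq and its annotation) was read on the plus strand in windows of 200 bp around the middle of each region. Peak height is the deposited score of a peak, taken here as a MACS2 q-value on the −log10 scale. It measures how far a peak exceeds the noise of the same library and increases with sequencing depth, so it is not a read count. Numbers of reads behind the peaks are unknown.

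The Il12b windows are shown first because Il12b held 5 of the 6 control-only regions among the members, that is, with a peak in both control libraries and in neither IL-4 library, a pattern of 4.33% of all regions. It also held the 1 member region that was IL-4-only, the opposite pattern, which 2.53% of all regions had. The first 5 lines are the windows of the control-only regions, followed by those of the IL-4-only region and the promoter region. A window of 200 bp can reach beyond a short region or leave out the ends of a long one. Capitals mark matches to the motifs searched on both strands.
Il12b −76492 (chr11:44323472-44323671): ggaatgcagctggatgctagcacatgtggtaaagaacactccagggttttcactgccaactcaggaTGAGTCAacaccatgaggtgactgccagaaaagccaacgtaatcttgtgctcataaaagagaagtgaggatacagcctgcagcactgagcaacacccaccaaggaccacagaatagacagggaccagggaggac
Il12b −9726 (chr11:44390238-44390437): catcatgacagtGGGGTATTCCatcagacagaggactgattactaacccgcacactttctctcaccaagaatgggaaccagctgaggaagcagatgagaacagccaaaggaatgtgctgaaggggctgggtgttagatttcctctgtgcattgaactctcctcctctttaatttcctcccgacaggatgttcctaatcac
Il12b +10624 (chr11:44410585-44410784): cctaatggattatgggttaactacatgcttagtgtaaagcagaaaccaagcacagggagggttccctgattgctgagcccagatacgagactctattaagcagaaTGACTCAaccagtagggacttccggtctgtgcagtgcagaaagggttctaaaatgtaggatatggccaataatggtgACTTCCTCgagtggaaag
Il12b +15061 (chr11:44415025-44415224): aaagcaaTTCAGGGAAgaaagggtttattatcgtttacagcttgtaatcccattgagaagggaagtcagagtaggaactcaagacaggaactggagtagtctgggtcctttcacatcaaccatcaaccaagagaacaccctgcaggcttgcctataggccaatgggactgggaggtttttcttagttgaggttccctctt
Il12b +17528 (chr11:44417492-44417691): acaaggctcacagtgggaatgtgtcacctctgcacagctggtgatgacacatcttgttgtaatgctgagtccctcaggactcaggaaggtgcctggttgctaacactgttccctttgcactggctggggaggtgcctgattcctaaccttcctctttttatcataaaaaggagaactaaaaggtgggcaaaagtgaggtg
Il12b −68416 (chr11:44331548-44331747): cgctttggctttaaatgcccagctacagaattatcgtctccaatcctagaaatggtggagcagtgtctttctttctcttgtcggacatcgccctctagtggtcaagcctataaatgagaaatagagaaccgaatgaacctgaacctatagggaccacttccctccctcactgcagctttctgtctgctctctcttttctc
Il12b −982 (chr11:44398975-44399174): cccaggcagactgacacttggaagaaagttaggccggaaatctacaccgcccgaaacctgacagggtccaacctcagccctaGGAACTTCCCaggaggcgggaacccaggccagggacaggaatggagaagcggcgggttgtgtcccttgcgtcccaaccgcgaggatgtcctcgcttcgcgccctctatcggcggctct

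The motifs searched were the STAT6 motif TTCNNNNGAA, a STAT motif with the shorter spacing TTCNNNGAA, the AP-1 motif TGANTCA, the PU.1 motif GAGGAAGT, the C/EBP motif TTGCNNAA, the interferon response motif GAAANNGAAA and the NF-κB motif. Matches to different motifs may overlap and were counted separately. An AP-1 match stood in the control-only windows Il12b −76492 and Il12b +10624. The latter also held a PU.1 match read on the opposite strand as ACTTCCTC, which lay outside the region itself. The control-only window Il12b −9726 held the NF-κB match GGGGTATTCC, and the promoter window Il12b −982 held GGAACTTCCC. Il12b +15061 held the shorter STAT motif as TTCAGGGAA, while Il12b +17528 and the IL-4-only Il12b −68416 held none of the 7 motifs. None of the 10 Il12b windows held the STAT6 motif.

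The next windows are those of the control-only region of Ifnb1 and of the intergenic regions of Osm and Il10 with a STAT6 match. They are followed by those of the Il10 region with most AP-1 matches and the Il12a region with the most negative change. The last line gives the 250 bases upstream of the Il6 TSS, at or beside which 2 regions were found.
Ifnb1 +31800 (chr4:88490924-88491123): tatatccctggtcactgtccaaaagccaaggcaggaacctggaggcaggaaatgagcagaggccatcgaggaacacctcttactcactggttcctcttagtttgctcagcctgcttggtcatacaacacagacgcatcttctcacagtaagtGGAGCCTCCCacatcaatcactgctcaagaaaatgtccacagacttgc
Osm −3945 (chr11:4232708-4232907): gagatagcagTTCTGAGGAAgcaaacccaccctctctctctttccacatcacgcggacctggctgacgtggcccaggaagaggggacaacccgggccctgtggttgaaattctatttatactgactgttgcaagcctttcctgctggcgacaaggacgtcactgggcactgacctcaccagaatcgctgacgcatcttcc
Il10 +32710 (chr1:131052491-131052690): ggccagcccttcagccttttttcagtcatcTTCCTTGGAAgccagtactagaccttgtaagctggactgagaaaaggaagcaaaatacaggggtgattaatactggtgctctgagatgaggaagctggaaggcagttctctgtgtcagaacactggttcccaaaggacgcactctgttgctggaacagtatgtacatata
Il10 +18401 (chr1:131038168-131038367): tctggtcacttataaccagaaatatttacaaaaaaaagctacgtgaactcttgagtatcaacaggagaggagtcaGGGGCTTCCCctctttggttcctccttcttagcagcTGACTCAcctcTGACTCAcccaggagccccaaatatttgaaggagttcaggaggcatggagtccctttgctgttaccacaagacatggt
Il12a −13476 (chr3:68677019-68677218): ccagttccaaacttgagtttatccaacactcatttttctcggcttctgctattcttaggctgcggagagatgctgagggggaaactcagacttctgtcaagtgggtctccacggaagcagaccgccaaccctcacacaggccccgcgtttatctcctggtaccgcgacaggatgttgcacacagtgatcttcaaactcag
Il6 upstream (chr5:30012864-30013113): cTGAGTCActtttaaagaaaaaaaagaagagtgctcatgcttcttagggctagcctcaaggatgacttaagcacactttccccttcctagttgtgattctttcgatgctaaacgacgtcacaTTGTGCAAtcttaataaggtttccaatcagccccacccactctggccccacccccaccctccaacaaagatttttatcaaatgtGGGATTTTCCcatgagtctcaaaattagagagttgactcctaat

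The STAT6 motif was found in 3 of the 49 member windows (6.12%), as TTCTGAGGAA in Il6 −135848 and Osm −3945 and as TTCCTTGGAA in Il10 +32710. The share over all 60710 windows was 6.35%, and it was 29.9% in all IL-4-only regions and 2.28% in all control-only regions. AP-1 matches stood in 14 member windows (28.6%) against 20.4% of all windows. Of the 7 Il10 windows, Il10 +1276, Il10 +1837, Il10 +6152 and Il10 +18401 held AP-1 matches. NF-κB matches stood in 7 member windows (14.3%) against 5.09% of all, C/EBP matches in 8 (16.3%) against 10.7%, PU.1 matches in 6 (12.2%) against 9.15%, interferon response matches in 3 (6.12%) against 3.15%, and the shorter STAT motif in 4 (8.16%) against 5.84%. Among the windows shown, Ifnb1 +31800 held the NF-κB match GGAGCCTCCC, Il10 +18401 held GGGGCTTCCC, and Il12a −13476 held no match. The letters upstream of the Il6 TSS held an AP-1, a C/EBP and an NF-κB match (GGGATTTTCC), which were present in 6.75%, 9.56% and 7.25% of 32851 mouse promoter windows of the same length. The 250 bases upstream of the Il12b and Tnf start sites held none of the 7 motifs, and those of Ifnb1 held the NF-κB match GGGAAATTCC. Il12a has entries for 2 start sites, each with a STAT6 match (TTCCAAGGAA and TTCTTTAGAA), a motif in 5.85% of the promoter windows, and no Il12a region lay within 1 kb of the TSS. The Lif entry held an AP-1 match and the NF-κB match GGGACGCCCC. Several counted matches lay in the window but outside the region, such as the NF-κB match of Lif +3729 and the C/EBP match of Il6 −262. A match is a stretch of letters and not evidence of binding.

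Every library had a peak at 22 of the 49 regions (44.9%), compared with 41.9% of all regions. A further 5 regions had a peak in 3 libraries, 11 in 2 and 11 in 1. Most lay away from genes, with 34 (69.4%) annotated as intergenic against 35.8% of all regions, and 4 (8.16%) annotated as promoter against 18.8%. Their heights were of the usual size, since the median of the highest peak was 7.36 against 7.46 for all regions. Within 1 kb of the TSS, Il6 had 2 regions, Tnf, Il12b and Il23a had 1 each, and Lif, Osm, Il12a, Il27, Il10 and Ifnb1 had none.

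Fewer cytokine regions had a peak in the libraries from IL-4 cells, mainly at Il12b. Il12b had a peak at 9 and 8 regions in the control libraries and at 4 in each IL-4 library. Il12a (2 and 3 against 5 and 4) and Il10 (6 and 6 against 6 and 7) had no such decrease. Peaks were present at 39 regions in control replicate 1, 36 in control replicate 2, 30 in IL-4 replicate 1 and 31 in IL-4 replicate 2, so the groups did not overlap. These are 79.6%, 73.5%, 61.2% and 63.3% of the member regions. The shares over all regions were 72.2%, 66.7%, 66.5% and 62.1%, and did not overlap between the groups either. The control mean was 37.5 ± 2.12 and the IL-4 mean 30.5 ± 0.707 (SD, n = 2), which is lower by 7 (IL-4 minus control, −7). An exact permutation test over the libraries gave a two-sided p of 0.333, the smallest value that 2 against 2 allows. The lists themselves were of unequal length, with 45250, 41885, 41978 and 39462 peaks in the same order and median heights of 8.04, 7.46, 7.69 and 6.41. When only the 39462 highest peaks of each library were kept, a choice made after the data were seen, member regions numbered 34, 35, 28 and 31, and the difference was −5. With a height of at least 5 they numbered 27, 21, 21 and 21, so control replicate 2 and the IL-4 libraries had the same number, and the difference was −3.

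**Figure D1:**
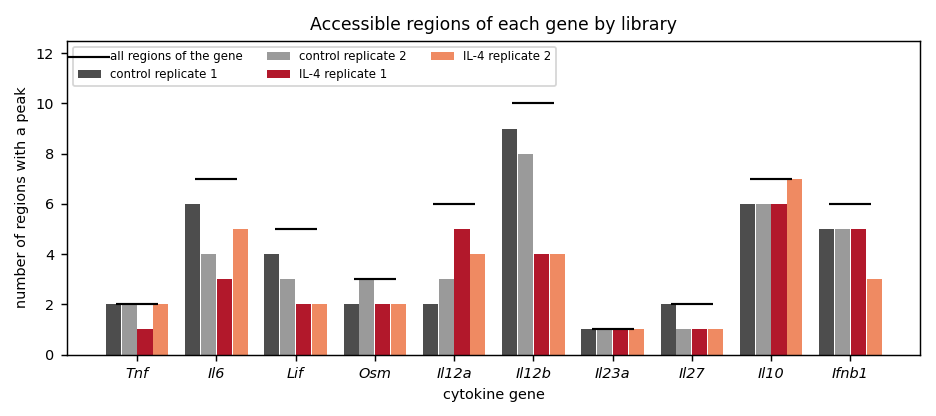
Number of regions with a peak in each library (bars, vertical axis) for the 10 cytokine genes (horizontal axis), where a black line marks all regions of the gene. The Il12b bars stand at 9 and 8 in the control libraries and at 4 in each IL-4 library, while for Il10 they stand at 6, 6, 6 and 7.

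Control-only regions numbered 6 of 49 (12.2%), and the background over all 60710 regions was 4.33%. IL-4-only regions numbered 1 of 49 (2.04%) against a background of 2.53%. The control-only regions comprised 5 of Il12b and 1 of Ifnb1, so the excess over the background came from Il12b, and the other 9 genes together had 1. These peaks were low. The weaker of the 2 control heights had a median of 3.93 and a range of 2.98 to 4.95, compared with a median of 4.71 for the weakest height of the 22 regions present in all libraries, and with a median of 4 over all control-only regions. A height of at least 5 left 1 control-only region among the members and 0 of Il12b, and merging peaks within 100 bp left 5 and 4. The absence of a peak means that the region did not pass the caller's cut-off in that library, not that the DNA was closed.

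The number of regions with a peak differed most between the groups at Il12b, which encodes the p40 chain shared by IL-12 and IL-23. Its 10 regions, from chr11:44323493-44323650 to chr11:44417485-44417697, had peaks at 9 and 8 in control replicates 1 and 2 and at 4 in each IL-4 library. Of its regions, 5 (50%) were control-only. Among 1209 genes with at least 10 regions, Il12b was the only 1 with so high a share, 651 genes had no control-only region, and the median share was 0%. This comparison was chosen after the values of Il12b had been seen and is a description. The cut-off of 10 is the number of Il12b regions itself, which Il12b reached only with its 5 control-only regions. Its rank is therefore no support for a difference. With equal numbers of peaks per library the Il12b counts were 7, 8, 4 and 4, and 4 Il12b regions were control-only. With a height of at least 5 the counts were 5, 3, 2 and 4, and the groups overlapped.

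The furthest control-only region upstream, Il12b −76492 (chr11:44323493-44323650, intergenic), had heights of 4.38 in control replicate 1 and 6.18 in control replicate 2. Il12b −9726 (chr11:44390206-44390468, intergenic), whose window carries the NF-κB letters shown above, had heights of 6.11 and 3.24. Il12b +10624 (chr11:44410618-44410751, intron 5 of 7) had 3.48 and 3.6. All of these lacked a peak in both IL-4 libraries. Downstream of the gene, Il12b +15061 (chr11:44415023-44415226, intergenic) had control heights of 7.98 and 4.5. It began within 100 bp of Il12b +14808, which had a peak in every library. When peaks within 100 bp were merged, 4 Il12b regions were control-only. Il12b +17528 (chr11:44417485-44417697, intergenic) had 6.33 and 2.98. In 4 of the 5 control-only regions 1 of the control heights was above 5, and in none were both. The single region with the opposite pattern, Il12b −68416 (chr11:44331584-44331711, intergenic), had heights of 4.11 and 7.86 in IL-4 replicates 1 and 2 and no control peak.

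**Figure D2:**
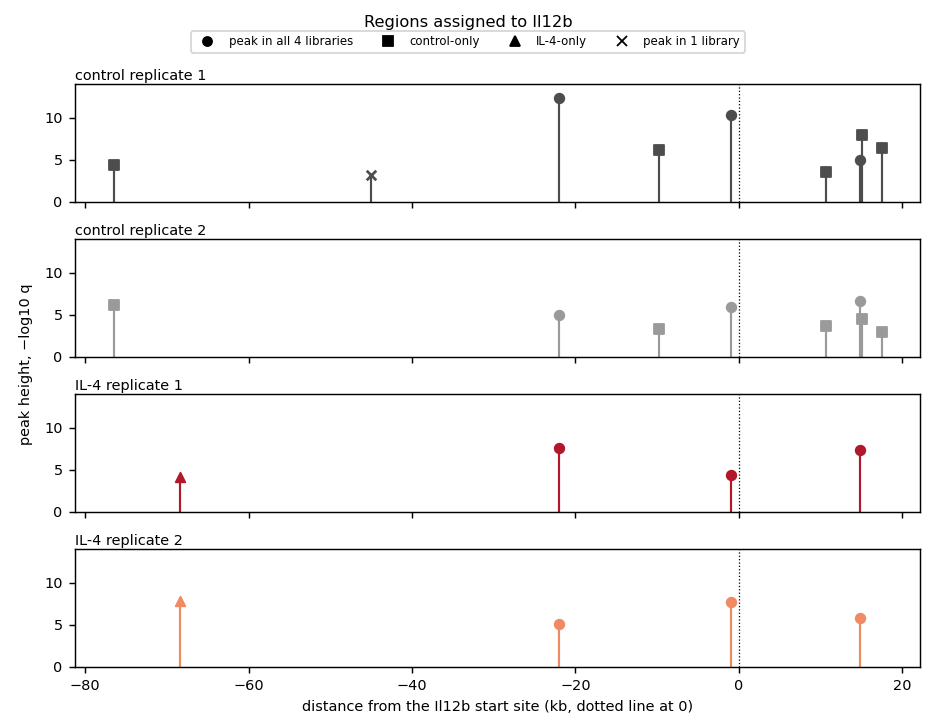
Peak height (−log10 q, vertical axes) of the regions assigned to Il12b in each library, against the distance of the region from the TSS in kb (horizontal axis). Squares are the 5 control-only regions, which are absent from both IL-4 panels, the triangle is the IL-4-only region, and circles are the 3 regions found in every library.

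Another 3 Il12b regions had a peak in every library. The promoter region Il12b −982 (chr11:44398929-44399219) had heights of 10.35 and 5.9 in control replicates 1 and 2 and of 4.32 and 7.68 in IL-4 replicates 1 and 2. The groups overlapped, and the log2 change in normalised height (IL-4 minus control) was −0.18 with a standard error of 0.53 and a 95% interval of −1.25 to 0.89 in limma. Il12b −21978 (chr11:44377982-44378220, intergenic) had 12.33 and 4.95 in control and 7.57 and 5.05 in IL-4 cells. Both IL-4 values lay between the 2 control values, and the log2 change was −0.11 (SE 0.53). Il12b +14808 (chr11:44414679-44414988), at the end of the gene and next to the control-only Il12b +15061, had 4.96 and 6.57 in control and 7.36 and 5.72 in IL-4 cells. The raw heights overlapped, while after normalisation between libraries both IL-4 values were above both control values, as at 19.2% of all regions tested, with a log2 change of 0.43 (SE 0.53) and an adjusted p of 0.887 in limma. The change was 0.099 when peaks within 100 bp were merged and 0.12 without control replicate 1. Il12b −44996 had a single peak, of 3.17 in control replicate 1.

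**Figure D3:**
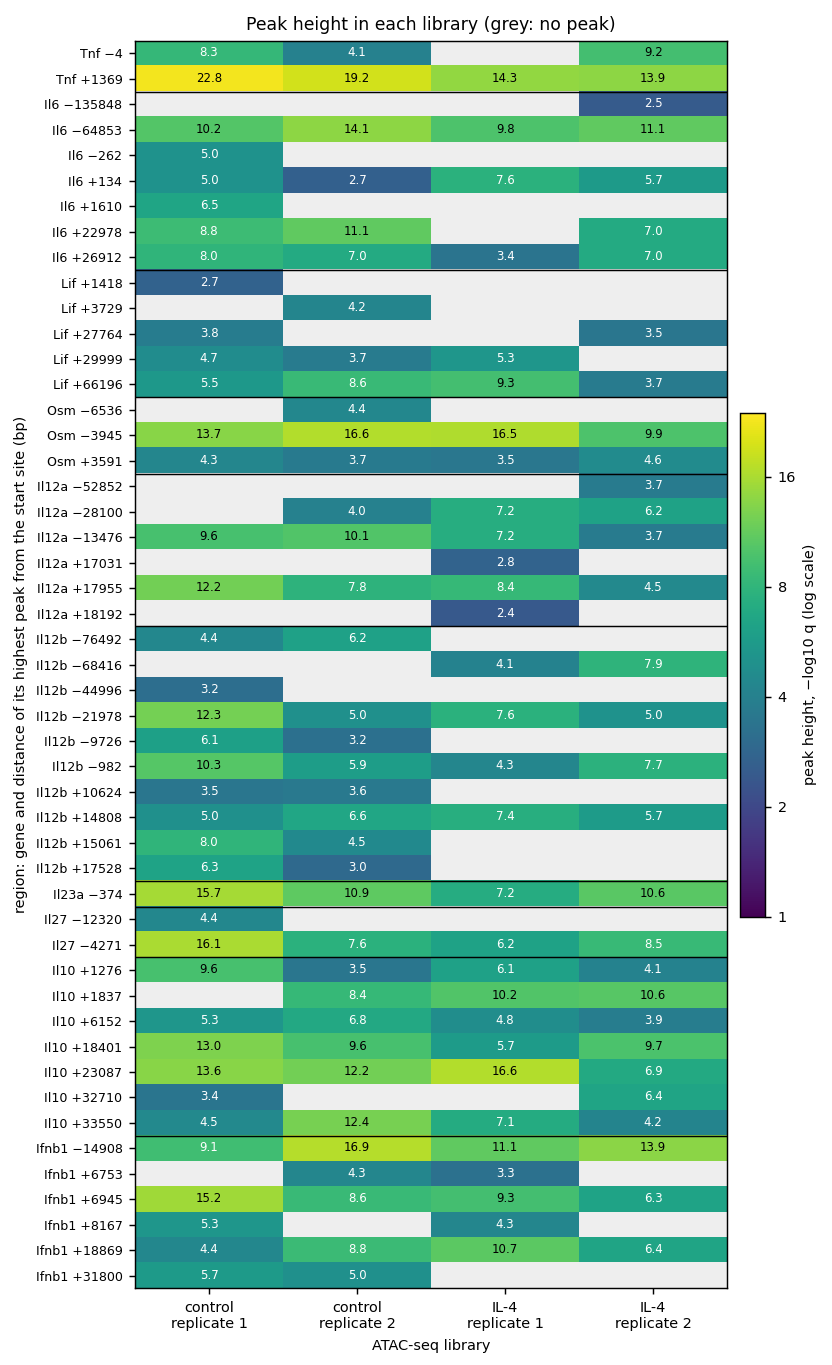
Peak height in each of the 4 libraries (columns) for all 49 regions (rows, grouped by gene and labelled with the distance from the TSS in bp). Numbers and colour give the height as −log10 q on a log colour scale, grey cells have no peak, and the highest value is 22.78 at Tnf +1369 in control replicate 1.

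Tnf, the prototype inflammatory cytokine gene, had 2 regions. The promoter region Tnf −4 (chr17:35201865-35202136) had heights of 8.26 and 4.06 in control replicates 1 and 2, no peak in IL-4 replicate 1, and 9.25 in IL-4 replicate 2. The IL-4 libraries thus gave both the highest value and the missing one. Tnf +1369 (chr17:35200489-35200790, intron 3 of 3) had the highest peak of all 10 genes in both control libraries and in IL-4 replicate 2, but not in IL-4 replicate 1, with 22.78 and 19.2 in control and 14.33 and 13.93 in IL-4 cells. Both IL-4 heights were below both control heights, as at 18.6% of all regions tested. The log2 change was −0.37 with a standard error of 0.32 and an interval of −1.0 to 0.27, and it did not pass the test (adjusted p = 0.814, limma).

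Among the genes of the IL-6 family, whose products share the receptor chain gp130, Il6 encodes the acute-phase cytokine IL-6 and had 7 regions. With all libraries, the largest positive change of the member regions was at Il6 +134 (chr5:30013155-30013375, intron 1 of 4), which had heights of 5.04 and 2.66 in control replicates 1 and 2 and of 7.57 and 5.65 in IL-4 replicates 1 and 2. Both IL-4 heights were above both control heights, also after normalisation, as at 19.2% of all regions tested. The log2 change was 1.04 with a standard error of 0.55 and an interval of −0.06 to 2.13, and neither the unadjusted p of 0.0624 nor the adjusted p of 0.63 passed the threshold in limma. On the other side of the TSS, the promoter region Il6 −262 (chr5:30012846-30012952) had 1 peak, of 5.04 in control replicate 1. The lone peak of Il6 +1610 in intron 2, of 6.45, was also in control replicate 1. The distal Il6 −64853 had 10.25 and 14.05 in control and 9.84 and 11.07 in IL-4 cells (log2 change 0.04, SE 0.42), and Il6 +26912 had 7.96, 6.98, 3.39 and 6.97 in the same order (log2 change −0.37, SE 0.55). Groups overlapped at Il6 −64853, which lies over an exon of Gm43386. At Il6 +26912 both IL-4 heights were below both control heights as deposited but not after normalisation. Il6 +22978 had 8.8 and 11.08 in control, no peak in IL-4 replicate 1 and 6.97 in IL-4 replicate 2, and Il6 −135848, with its STAT6 letters, had 1 peak of 2.49 in IL-4 replicate 2.

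Lif and Osm, which lie next to each other on chromosome 11 and encode leukaemia inhibitory factor and oncostatin M, had 5 and 3 regions. Osm −3945 (chr11:4232627-4232987), the intergenic region with the STAT6 match TTCTGAGGAA shown above, had heights of 13.7 and 16.56 in control replicates 1 and 2 and of 16.5 and 9.94 in IL-4 replicates 1 and 2. The groups overlapped and the log2 change was 0.00 (SE 0.37, interval −0.74 to 0.74). Osm +3591, in the 3' UTR, had 4.3 and 3.67 in control and 3.53 and 4.61 in IL-4 cells, with a log2 change of 0.23 (SE 0.55). These were low peaks, and every library had one within the merged region. With a height of at least 2, no region there had a peak in every library. The same was true of the remaining libraries without control replicate 2 or without IL-4 replicate 2. Osm −6536 had 1 peak, of 4.38 in control replicate 2. The only Lif region with a peak in all libraries, Lif +66196, had 5.46 and 8.63 in control and 9.33 and 3.73 in IL-4 cells (log2 change 0.04, SE 0.54). The spread within each group was larger than the difference between them. Nearest to the TSS, Lif +1418 in intron 1 had a peak of 2.7 in control replicate 1 alone, and Lif +3729 had 4.24 in control replicate 2 alone. Lif +29999 had 4.7, 3.74 and 5.34 in both control libraries and IL-4 replicate 1, and Lif +27764 had 3.8 in control replicate 1 and 3.49 in IL-4 replicate 2.

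The remaining genes of the IL-12 family each encode a partner chain of a dimer. Il12a, for p35, had 6 regions and none within 1 kb of the TSS. Il12a −13476 (chr3:68676897-68677339, intergenic) showed the most negative change of all 22 member regions tested, with heights of 9.57 and 10.07 in control replicates 1 and 2 and of 7.21 and 3.73 in IL-4 replicates 1 and 2. Both IL-4 heights were below both control heights, also after normalisation, as at 18.6% of all regions tested. The log2 change was −0.66 with a standard error of 0.52 and an interval of −1.69 to 0.38 (adjusted p = 0.79, limma). Without control replicate 2 the peaks merged differently and the change had the opposite sign, 0.58. Il12a +17955 had 12.22 and 7.8 in control and 8.41 and 4.46 in IL-4 cells, with overlapping groups and a log2 change of −0.45 (SE 0.50). In contrast, Il12a −28100 had no peak in control replicate 1, 4.04 in control replicate 2, and 7.21 and 6.21 in the IL-4 libraries. The other 3 Il12a regions had 1 peak each, of 3.73, 2.75 and 2.44, all in IL-4 libraries. In total Il12a had a peak at 2 and 3 regions in control cells and at 5 and 4 in IL-4 cells (replicates 1 and 2).

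Il23a, for the p19 chain of IL-23, had 1 region, at its promoter. Il23a −374 (chr10:128298232-128298615) had heights of 15.71 and 10.89 in control replicates 1 and 2 and of 7.16 and 10.58 in IL-4 replicates 1 and 2. Both IL-4 heights were below both control heights as deposited but not after normalisation, and the log2 change was −0.35 (SE 0.44, interval −1.23 to 0.52). Il27, for the p28 chain of IL-27, had its main region upstream of the gene, Il27 −4271 (chr7:126599052-126599279), with 16.1 and 7.61 in control and 6.24 and 8.5 in IL-4 cells. The groups overlapped (log2 change −0.38, SE 0.48). Its other region, Il27 −12320, had 1 peak of 4.38 in control replicate 1.

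Il10, which encodes the anti-inflammatory cytokine of the set, had all its 7 regions downstream of the TSS, and 5 of them had a peak in every library. Il10 +1276 (chr1:131021002-131021240, intron 2 of 4), the nearest to the TSS, had heights of 9.57 and 3.49 in control replicates 1 and 2 and of 6.13 and 4.09 in IL-4 replicates 1 and 2. Both IL-4 values lay between the control values (log2 change 0.06, SE 0.55). Il10 +1837 in intron 3 had no peak in control replicate 1, 8.42 in control replicate 2, and 10.16 and 10.57 in the IL-4 libraries, where both values were above that of the control library. The largest difference among the tested Il10 regions was at Il10 +18401 (chr1:131038094-131038440, intergenic), whose window with its 2 AP-1 matches is shown above. It had 13.01 and 9.56 in control and 5.69 and 9.74 in IL-4 cells, with overlapping groups and a log2 change of −0.34 (SE 0.48, interval −1.29 to 0.62). Il10 +23087 had 13.59, 12.15, 16.62 and 6.89 in the same order (log2 change −0.01, SE 0.41). Here IL-4 replicates 1 and 2 held the highest and the lowest value of the 4. The log2 changes of Il10 +6152 and Il10 +33550 were −0.23 (SE 0.55) and −0.22 (SE 0.55). Il10 +33550 was annotated as the end of a transcript other than that of Il10. Il10 +32710, with the STAT6 match, had a peak of 3.43 in control replicate 1 and of 6.41 in IL-4 replicate 2 only.

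Ifnb1, which encodes IFN-β, had 6 intergenic regions and none at its promoter. Its control-only region, Ifnb1 +31800 (chr4:88490934-88491112), had heights of 5.65 and 4.95 in control replicates 1 and 2 and no peak in either IL-4 library. Ifnb1 −14908 (chr4:88537367-88537936), the longest member region at 570 bp, had 9.1 and 16.95 in control and 11.1 and 13.89 in IL-4 cells. The IL-4 values lay within the control range, with a log2 change of 0.23 (SE 0.41). The largest change of this gene with all libraries was at Ifnb1 +18869 (chr4:88503813-88503995), with 4.38 and 8.78 in control and 10.74 and 6.43 in IL-4 cells. The groups overlapped and the log2 change of 0.66 did not pass the test (SE 0.52, interval −0.39 to 1.71, adjusted p = 0.793, limma). It was 0.057 without control replicate 1, where Ifnb1 −14908 differed more (−0.33), and 1.2 without control replicate 2. Ifnb1 +6945 had 15.21 and 8.63 in control and 9.26 and 6.29 in IL-4 cells (log2 change −0.35, SE 0.46), and Ifnb1 +6753 and Ifnb1 +8167 each had a peak in 1 control library and in IL-4 replicate 1.

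None of the 22 member regions present in every library passed the test. Limma was fitted to the quantile-normalised log2 heights of all 25442 regions of this kind, and p-values adjusted by the Benjamini-Hochberg method were called below 0.05. It called 0 of 22 member regions higher (background 0.0157%) and 0 lower (background 0.00786%), and 0 of 22 had an unadjusted p below 0.05, against 8.28% of all regions tested. Unadjusted p-values below 0.05 numbered 5 of 38 member regions with missing heights imputed and 1 of 22 without the variance trend, and none passed after adjustment. After normalisation, both IL-4 heights were above both control heights at 2 member regions, Il6 +134 and Il12b +14808, where the background was 19.2%. They were below at 2, Tnf +1369 and Il12a −13476, where the background was 18.6%. The change was positive at 8 and negative at 14 regions, and its median was −0.15 (range −0.66 to 1.04), compared with 0.00 over all regions tested. Medians from 1 IL-4 library against 1 control library ranged from −0.23 to 0.06 (SD 0.14, n = 4 pairs that share libraries). The median standard error of a member region was 0.52, and at 19 of the 22 the interval reached a log2 change of 1 or more in one direction, so changes of that size cannot be told from none there with 2 libraries per group. In bulk libraries, fewer cells with an open site and less opening per cell cannot be told apart.

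**Figure D4:**
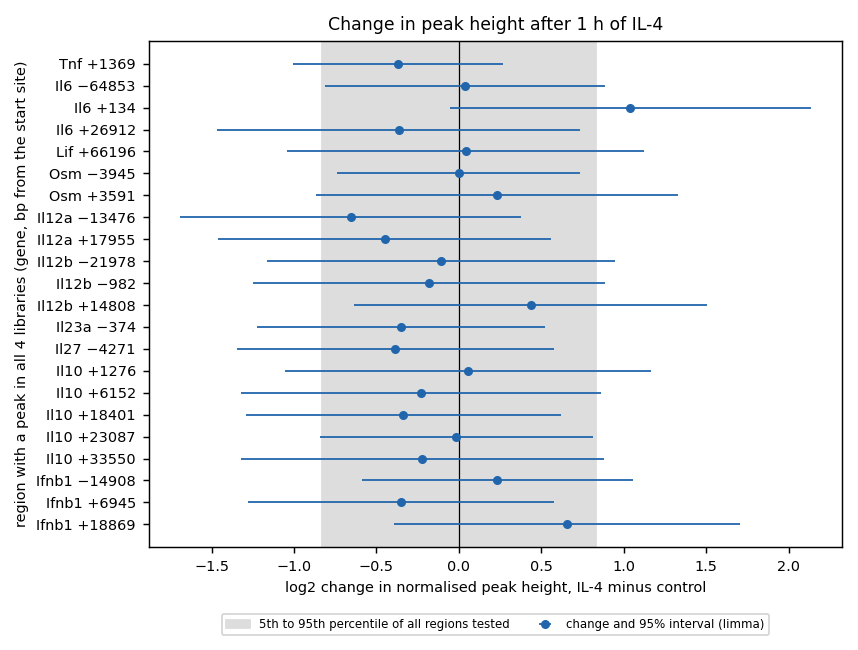
Log2 change in normalised peak height, IL-4 minus control (horizontal axis), with its 95% interval from limma for the 22 member regions found in every library (vertical axis, gene and distance from the TSS in bp). The grey band spans the 5th to 95th percentile of all 25442 regions tested (−0.83 to 0.83), and all 22 intervals include 0.

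The labelled cell type was checked at marker genes. The macrophage genes Cd68, Itgam and Lyz2 had a peak within 1 kb of the TSS in all 4 libraries, whereas Spi1, Csf1r and Adgre1 had none there. Of 10 markers of T cells, B cells, erythroid cells, fibroblasts and neutrophils, 9 had no such peak in any library, and Pdgfra had 1 of 5.44 in a single library.

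The genes around this set were examined as lists. Over all regions, 4.33% were control-only and 2.53% IL-4-only. Of all regions tested, limma called 0.0157% higher and 0.00786% lower, and 8.28% had an unadjusted p below 0.05. For 17 cytokine partners and locus neighbours, 14 genes had 50 regions, of which 3 were control-only (6%) and 1 IL-4-only (2%). Limma called 0 of 19 tested regions in either direction, with 1 at an unadjusted p below 0.05 and a median log2 change of 0.11. The lowest unadjusted p of this list was at +31720 of Il15, in intron 2, with 5.96 and 4.58 in control and 12.98 and 8.86 in IL-4 cells (log2 change 1.28, SE 0.51, adjusted p = 0.459). The promoter of Ebi3, which was next but one by p and whose product pairs with that of Il27, had 17.64 and 13.83 in control and 8.33 and 8.86 in IL-4 cells, with a log2 change of −0.63 (SE 0.41, adjusted p = 0.722). For the 14 receptor genes of these cytokines, 75 regions included 3 control-only (4%) and 1 IL-4-only (1.33%), and 0 of 37 tested regions passed, with 6 at an unadjusted p below 0.05 and a median of −0.12. The lowest unadjusted p of this list was at −7700 of Tnfrsf1b, a TNF receptor gene, with 11.42 and 6.61 in control and 19.39 and 17.13 in IL-4 cells (log2 change 1.28, SE 0.39, adjusted p = 0.281). Its promoter, at −5, had 13.85 and 14.79 in control and 5.79 and 3.79 in IL-4 cells (log2 change −1.34, SE 0.49, adjusted p = 0.404). For the 14 signal transducers and feedback genes, 122 regions included 6 control-only and 6 IL-4-only (4.92% each), and 0 of 52 tested regions passed, with 8 at an unadjusted p below 0.05 and a median of 0.04. The lowest unadjusted p was at +62442 of Jak1, a kinase of cytokine receptors, in intron 1, with 19.07 and 13.63 in control and 4.11 and 3.78 in IL-4 cells (log2 change −1.78, SE 0.49, adjusted p = 0.228). Next came +30726 in the same intron, with 14.35 and 17.02 in control and 5.89 and 4.69 in IL-4 cells (log2 change −1.35, SE 0.47, adjusted p = 0.374). The control-only regions, with heights of 2.66 to 6.77, belonged to Stat4, Rel, Socs3, Nfkbiz and Nfkb1. Among their IL-4-only regions, which were named after their values were seen, were 2 in intron 1 of Nfkb1, at +7939 with heights of 26 and 13.82 and at +2379 with 9.76 and 16.55, and 1 upstream of Jak2, at −12110 with 20.71 and 12.9. These named IL-4-only peaks were higher than that of Il12b −68416. The list's other IL-4-only regions were lower than those named. In IL-4 replicates 1 and 2 they had 3.81 and 4.48 at −50162 of Rel and 4.51 and 3.55 at +26224 of Nfkbiz. At +2107 of Jak2 the heights were 6.1 and 3.95.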

How the data were processed

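ATAC-seq peak lists of 4 libraries (control and IL-4, replicates 1 and 2) were analysed, and the groups were taken from the labels. Per the methods, reads were mapped to mm10 by BWA, MACS2 called peaks library by library, blacklisted regions were taken out and HOMER annotated what was left. The submitters' processing notes list BWA 0.7.10, SAMtools 0.1.19, MACS2 2.0.10 and HOMER 4.2. The deposited score was taken as −log10 of the MACS2 q-value, since the lowest values were 1.3 to 1.32 and −log10 of 0.05 is 1.30. The methods name a cut-off of q of 0.01, so 133 to 603 peaks per library lie below the corresponding height of 2. Shifting for the Tn5 cut and handling of duplicate and mitochondrial reads are not given in the sources used here. Read depth is unknown, so no count test was run; the DiffBind comparison of the authors needs reads.

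Merging at an overlap of 1 bp was restricted to chromosomes 1 to 19, X and Y, and was checked with bedtools 2.31.1 (60710 regions both ways). The highest peak of a library within a region gave its height. For the 25442 regions detected in every library, log2 heights were quantile-normalised and fitted with limma 3.58.1 (eBayes with a trend, R 4.3.3), with p-values adjusted by Benjamini-Hochberg over all of them. The fit was tested on simulated data whose changes were larger than that of any member region, which says nothing of its power at smaller changes. Counts of regions per library were compared by an exact two-sided permutation test (scipy 1.17.1). The p-values rest on the spread between these libraries, which the study describes as 2 biological replicates. In limma this spread is largely pooled over regions of similar height. A standard error therefore says little about the replicates of that region alone. Normalised control heights were 3.70 and 3.61 at Osm +3591 and 3.91 and 12.2 at Il10 +33550, yet both standard errors were 0.55.

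For every gene the rule named the region nearest to the TSS, the region with the largest change, regions past the threshold and all group-specific regions. Of the companion lists, at most 3 regions of lowest p were to be named. The members, lists and tests were chosen with earlier results of these data known. Alternatives were the scaling, the variance prior, the replicate block, imputed heights, height minimums of 2 and 5, merging within 100 bp, equal numbers of peaks (added after seeing the data) and leaving out each library. Motif letters and windows came from GRCm38.p6. RefSeq promoter entries matched 6 of the 10 genes.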

Additional observations from a re-analysis of the deposited data

How the results depend on the processing

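No member region passed the threshold in any of the 11 settings of the limma fit, where the lowest adjusted p ranged from 0.389 to 0.823 and 0 regions had an unadjusted p below 0.05 except 5 of 38 with missing heights imputed and 1 of 22 without the variance trend, and the median log2 change of the member regions stayed negative (−0.20 to −0.02). Over all regions, 4 higher and 2 lower calls became 0 and 0 without the variance trend, 0 and 0 with missing heights imputed, 11 higher calls with the replicate number as a replicate block, and 0 to 14 higher and 0 lower calls when 1 library was left out (0 higher without either IL-4 replicate, 14 without control replicate 2). The labels do not say whether libraries of the same number were paired. The replicate differences of the groups were uncorrelated (r = 0.0068 over 25442 regions), which cannot exclude a pairing, and the block changed no call of a member. Control-only member regions numbered 1 (0 of Il12b) at a height of at least 5 and 5 (4 of Il12b) with merging within 100 bp. Without 1 library they numbered 7 to 11 (11 without control replicate 2, 9 without IL-4 replicate 2), where 5 or 6 were of Il12b. IL-4-only member regions numbered 1 to 4 without 1 library (4 without control replicate 2 or IL-4 replicate 2, 3 without IL-4 replicate 1). Leaving out a library loosens both rules, since a peak in, or absence from, 1 library of that group then suffices. The counts without 1 library could therefore hardly fall and are no check of the group-specific regions. The difference in member regions per library was −3 at a height of at least 5, −5 with equal numbers of peaks and −8 to −5.5 without 1 library. Of 217 alternative values at the 22 regions, 192 kept their sign. This tally includes the variance prior and the replicate block, which cannot alter the change, so it overstates how stable the signs were. The 25 others fell on 15 regions whose change was not called: Osm −3945 was 0.0069 under median centring, and all the rest came from leaving out 1 library. Without 1 library the log2 change ranged from −0.33 to 0.78 at Ifnb1 −14908, −0.58 to 0.69 at Il10 +1276, −0.88 to 0.21 at Il10 +18401, −0.47 to 0.43 at Il10 +23087, −1.06 to 0.56 at Il10 +33550, −0.53 to 0.030 at Il10 +6152, −0.96 to 0.58 at Il12a −13476, −0.67 to 0.42 at Il12b −21978, −0.75 to 0.38 at Il12b −982, −0.78 to 0.088 at Il23a −374, −0.83 to 0.051 at Il27 −4271, −1.03 to 0.34 at Il6 +26912, −0.30 to 0.35 at Il6 −64853, −0.44 to 0.53 at Lif +66196 and −0.25 to 0.23 at Osm −3945. At the 7 regions that kept their sign it ranged from 0.057 to 1.2 at Ifnb1 +18869, −0.68 to −0.041 at Ifnb1 +6945, −0.74 to −0.13 at Il12a +17955, 0.12 to 0.69 at Il12b +14808 (0.099 with merging within 100 bp), 0.68 to 1.33 at Il6 +134, 0.22 to 0.64 at Osm +3591 and −0.49 to −0.23 at Tnf +1369. Osm +3591 had such values only without control replicate 1 and without IL-4 replicate 1. With 1 library left out, the lone library of a group is assumed to vary like the others. A height of at least 5 and equal numbers of peaks served for the counts of regions and are not among the 11 limma settings. The causes were not tested, and read depth, which limits low peaks, is unknown.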
